A study of Mus musculus with 8 samples.

Results

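Neurexins, neuroligins and the leucine-rich repeat transmembrane (Lrrtm) proteins join the presynaptic to the postsynaptic membrane. The 8 genes described here, Nrxn2, Nrxn3, Nlgn1, Nlgn3, Lrrtm1, Lrrtm2, Lrrtm3 and Lrrtm4, were read by the non-control array probes whose gene name in the scanner files was one of these symbols, which gave 22 of the 39429 probes on the arrays, for 8 of 30139 gene names. Nrxn3 had 7 probes, Nlgn3 and Lrrtm4 had 3 each, Nrxn2, Nlgn1, Lrrtm2 and Lrrtm3 had 2 each, and Lrrtm1 had 1. No measured value entered that rule.

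Neurexins sit on the axon terminal, where several promoters and extensive alternative splicing give each gene many transcripts, the long alpha and the short beta forms among them. Across the cleft they bind neuroligins and Lrrtm proteins, among other partners, and these recruit glutamate or GABA receptors through scaffolds such as PSD-95. In the hippocampus Lrrtm1 and Lrrtm2 are known for the maintenance of AMPA receptors at excitatory synapses, Lrrtm4 for excitatory synapses of dentate granule cells, Nlgn1 for excitatory synapses, and Nlgn3 for synapses of both kinds.

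RNA of whole hippocampus was compared between conditional knockout mice (CKO), which carried Ctcf loxP/loxP with Camk2a-Cre, and control mice (WT), which carried Ctcf loxP/loxP without Cre. All were adult C57BL/6 mice that had gone through behavioural tests, and each sample was a pool of 3 mice. Each genotype had 3 pools, matched by number for sex and age: 2 females with 1 male of 19 to 23 weeks in pool 1, females alone of 18 to 19 weeks in pool 2, and males alone of 15 to 17 weeks in pool 3. Pool 1 of each genotype was hybridised on 2 Agilent 1-colour arrays, which were averaged, giving 8 arrays on 2 slides. In both genotypes slide 1 held the first array of pool 1 and that of pool 2. Slide 2 held the second array of pool 1 and that of pool 3. Slide therefore cannot be told apart from the sex and age of pools 2 and 3. The Camk2a promoter drives Cre in excitatory forebrain neurons, and glia and inhibitory neurons of the same tissue are not its targets. As Cre was present in the CKO mice alone, effects of Cre and of Ctcf loss cannot be told apart. CTCF is a zinc-finger DNA-binding protein that, with cohesin, anchors chromatin loops. In whole tissue, fewer cells of a type and less RNA per cell cannot be told apart.

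The sequences under the probes matter here because different probes of 1 gene gave different answers. The first lines show stretches of 30 bases from the tested 60-base probes of Lrrtm4. Of the members it had the lowest p-values in the fit without the pool number as a block. The next lines are from the Nrxn3 probes other than A_55_P2165088 and from 1 probe of Nrxn2. All are copied from the scanner files in the probe's own orientation, and capitals mark bases within runs of 16 or more that also occur, on either strand, in a RefSeq promoter window of another gene (GRCm38.p6, 32851 windows). The stretches begin at the first base of the probe, except that of Nrxn2 (base 21).
Lrrtm4 A_52_P424206: tcaaatacatcgaagtgtatattcacacag
Lrrtm4 A_55_P2165210: attgccaccatagccaggtcggctgcacct
Nrxn3 A_55_P2105403: tcTCCTCCTTGAATCAAGGcctccggatcc
Nrxn3 A_55_P2105406: ctccacccttcctggtcaaaagaagccatc
Nrxn3 A_55_P1963889: aaagaagagagaactcctgtcaatgatggc
Nrxn3 A_55_P2054640: gtttcatctgctgaatgttcaagtgatgat
Nrxn3 A_66_P127136: cagaaatacccttatctggttctgaccagt
Nrxn3 A_55_P2054643: tgctttcccatttgctttttcgttcatgga
Nrxn2 A_55_P1954061: gaaatgtgtggGAAAAAGAAAACAAAAACT
The Nrxn2 probe, rich in A, shares such runs with 3 windows, as does Nrxn3 A_55_P2105403, and the other probes shown share none.

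Values are log2 of the background-subtracted array signal minus the 75th percentile of the same array, so 0 is the 75th percentile and a difference of 1 is a doubling. Levels are compared between pools for 1 probe at a time, since probes differ in brightness for reasons of sequence. The share of spots well above background ran from 59.2% to 66.0% over the 8 arrays, and 0 spots were saturated. The targeted gene had values of 0.18, 0.16 and 0.053 in CKO pools 1, 2 and 3, against 0.83, 1.12 and 1.04 in WT pools 1, 2 and 3. For Ctcf every CKO pool was thus lower than every WT pool, with a difference of -0.87 (SE 0.13); the limma adjusted p over all probes was 0.160, and 0.0334 with the pool number as a block. Of 23637 probes tested, 8 passed an adjusted p of 0.05 in limma, which is 0.0338%, and 89 of 23629 (0.377%) passed with the block.

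Hippocampal transcripts of the neurexin, neuroligin and Lrrtm genes were well measured in both genotypes, and none of their probes passed the test between CKO and WT. Of the 22 probes, 20 were well above background on all 8 arrays. The other 2, Nlgn1 A_55_P2061640 and Lrrtm4 A_55_P2102489, were not well above background on any array and were not tested. Of the 20 tested probes, 10 were higher and 10 were lower in CKO pools, and the median difference was -0.00098, against 0.010 over all tested probes. The adjusted p-values ran between 0.807 and 0.999 in limma, and the lowest with the pool number as a block was 0.354. At an unadjusted p of 0.05, 2 of the 20 probes were below the threshold, both lower in CKO pools and both of Lrrtm4, against 5.29% of all probes (2.31% lower, 2.99% higher). With the block this count was 7 of 20, of which 4 were lower and 3 were higher, against 8.3% of all probes (3.42% lower, 4.89% higher). The 3 higher probes were all of Nrxn3, and each was lowest in WT pool 3. The 4 lower were both tested Lrrtm4 probes, Nrxn2 A_55_P1954061 and Nlgn3 A_55_P2335903. Probes of the same gene on shared arrays are not independent, so this count is not a test. After adjustment 0 of the 20 passed. In 3 of the 20 probes the 3 CKO values were all below the 3 WT values, and in 0 were they all above, against 5.22% and 6% of all probes.

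**Figure D1:**
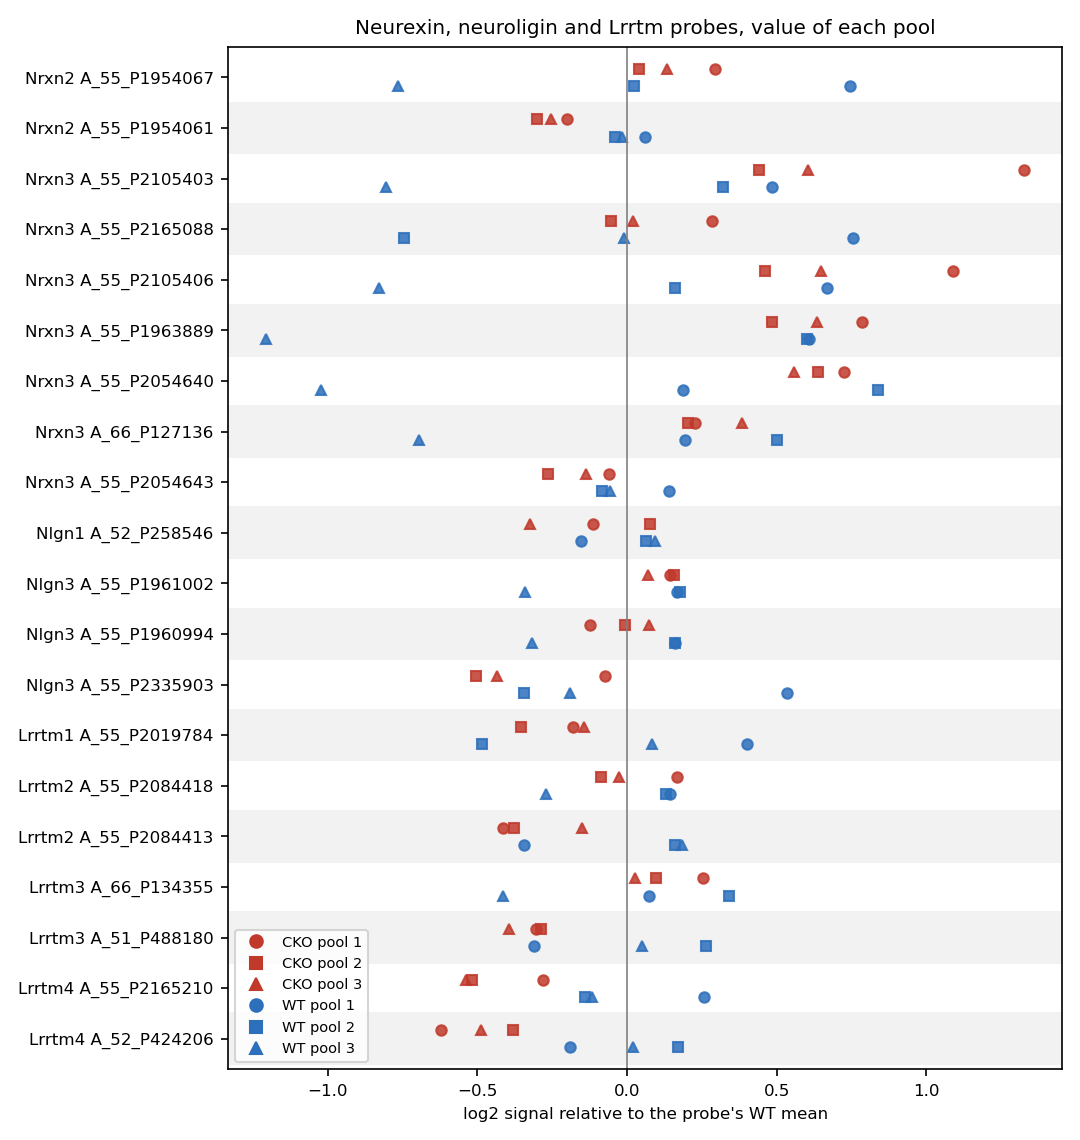
Values of the 20 tested probes in each pool, on the log2 scale relative to the mean of the 3 WT pools of the same probe (horizontal axis); red symbols are CKO pools and blue symbols are WT pools, with circles for pool 1, squares for pool 2 and triangles for pool 3. CKO and WT pools are separated for both Lrrtm4 probes and for Nrxn2 A_55_P1954061, while for most Nrxn3 probes the WT pool 3 triangle stands far to the left.

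Nrxn2 is the member whose brightest probe varied least among pools of a genotype. Probe A_55_P1954061 had values of 3.78, 3.68 and 3.73 in CKO pools 1, 2 and 3, against 4.04, 3.94 and 3.96 in WT pools 1, 2 and 3. The CKO values were all below the WT values, by a narrow and even margin in each numbered pair, and the groups averaged 3.73 ± 0.051 in CKO and 3.98 ± 0.052 in WT (SD, n = 3 each). The difference was -0.25 (SE 0.11), a CKO level 0.840 of the WT level, with an unadjusted p of 0.0507 and an adjusted p of 0.945 in limma. With the block these p-values were 0.0482 and 0.594. The second Nrxn2 probe, A_55_P1954067, lies 1031 bases upstream in the same transcript, and gave 2.97, 2.71 and 2.81 in CKO pools against 3.42, 2.70 and 1.91 in WT pools. Here the WT pools spanned more than the CKO pools and enclosed them, and the difference was 0.15 (SE 0.32). The arrays of WT pool 1 read 2.90 and 3.94 for this probe. Without the second of these arrays the WT values no longer enclosed CKO pool 1, and the difference was 0.33 (SE 0.22). The 2 Nrxn2 probes did not vary together over the 6 pools (r = 0.030, a description over pools that share arrays), and the lower signal at the bright probe was not seen at its neighbour.

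Nrxn3, a gene of many splice forms, gave the widest range of differences among the members, and at most of its probes 1 WT pool lay far from the other pools. The probe nearest a transcript start, A_55_P2105403 (base 330 of its transcript), had values of -2.69, -3.58 and -3.41 in CKO pools, against -3.53, -3.70 and -4.82 in WT pools. WT pool 3 was the lowest of the 6 and CKO pool 1 the highest, and the groups overlapped through WT pool 1. The difference was 0.79 (SE 0.38), with an unadjusted p of 0.0706 and an adjusted p of 0.989 in limma. Probe A_55_P2105406 (base 2218 of its own transcript) behaved likewise, with -1.18, -1.81 and -1.62 in CKO pools against -1.60, -2.11 and -3.09 in WT pools, a difference of 0.73 (SE 0.36, adjusted p = 0.990 in limma). With the block these 2 probes had unadjusted p-values of 0.0115 and 0.00984 and adjusted p-values of 0.374 and 0.354.

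Next along came 2 probes of another Nrxn3 transcript. A_55_P1963889 (base 3096) gave -1.98, -2.28 and -2.13 in CKO pools against -2.16, -2.17 and -3.97 in WT pools, a difference of 0.63 (SE 0.45). A_55_P2054640 (base 3630) gave -2.39, -2.47 and -2.55 in CKO pools against -2.93, -2.28 and -4.13 in WT pools, a difference of 0.64 (SE 0.41). For both, WT pools 1 and 2 lay among or close to the CKO pools, and WT pool 3 lay more than 1 log2 unit below every other pool. These differences had adjusted p-values of 0.999 in limma. With the block A_55_P2054640 had an unadjusted p of 0.0497 and an adjusted p of 0.600.

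Toward the end of the transcript that also holds A_55_P2105403 the difference shrank and then changed sign. A_66_P127136 (base 5928) had values of 1.65, 1.63 and 1.81 in CKO pools against 1.62, 1.93 and 0.73 in WT pools, a difference of 0.27 (SE 0.27). The brightest Nrxn3 probe, A_55_P2054643 (base 7861), had 3.31, 3.11 and 3.24 in CKO pools against 3.51, 3.29 and 3.32 in WT pools. At this probe WT pool 3 no longer stood apart, and the CKO pools averaged 3.22 ± 0.10 against 3.37 ± 0.12 in WT pools (SD, n = 3 each), a difference of -0.15 (SE 0.12, adjusted p = 0.999 in limma). The remaining probe, A_55_P2165088 (base 1098 of its own transcript), gave -0.77, -1.11 and -1.04 in CKO pools against -0.30, -1.80 and -1.07 in WT pools, with the CKO pools inside the WT range and a difference of 0.083 (SE 0.33). That range rests on WT pool 1, whose arrays read -1.24 and 0.63 for this probe. Without the second of these arrays the difference was 0.39 (SE 0.20). Of the 21 pairs of Nrxn3 probes, the correlation over the 6 pools ran between -0.28 and 0.98, with a median of 0.56, so the 7 probes did not give 1 common profile.

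**Figure D2:**
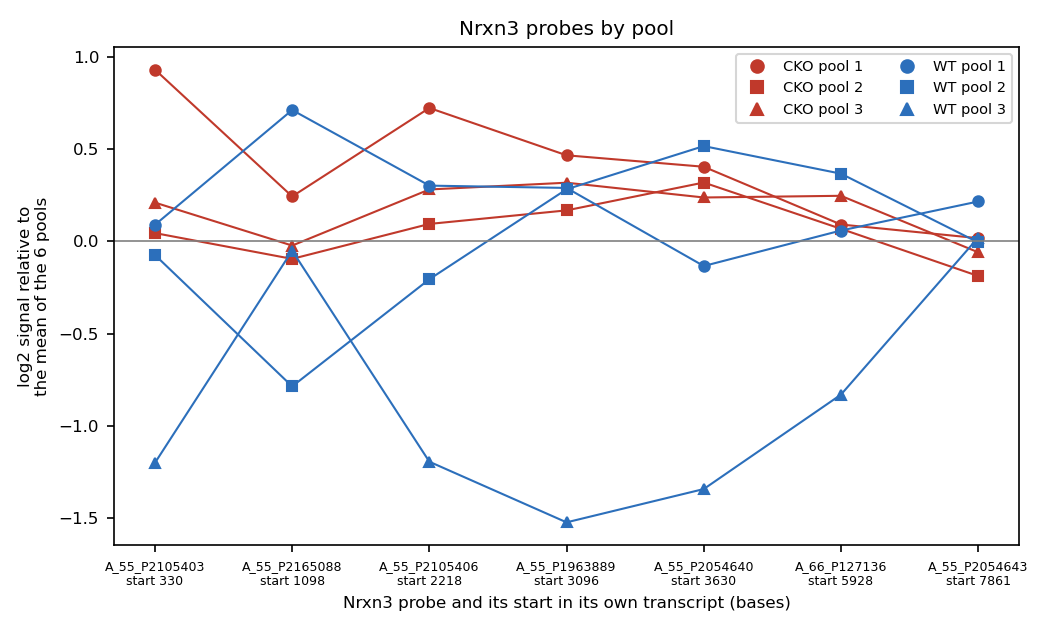
Each Nrxn3 probe in each pool, as log2 signal relative to the mean of the 6 pools (vertical axis), with probes ordered by the base at which they start in their own transcript, which is not the same transcript for all 7. WT pool 3 (blue triangles) lies more than 1 unit below the mean at 4 probes, lies below all other pools at A_66_P127136 too, and joins the other pools at A_55_P2054643.

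WT pool 3 was the lowest of the 6 pools at 5 of the 7 Nrxn3 probes and at 10 of the 20 tested member probes, against 20.8% of all tested probes. Without it, the differences were 0.39 for A_55_P2105403, 0.32 for A_55_P2105406, 0.031 for A_55_P1963889, 0.13 for A_55_P2054640 and -0.077 for A_66_P127136. The same pool stood apart by probe position over the whole array. Among 1292 pairs of probes at least 1000 bases apart in 1 transcript, the upstream probe minus the downstream probe had a median, relative to the 6 pools, of 0.23, 0.056 and -0.030 in CKO pools 1, 2 and 3, against 0.14, -0.041 and -0.36 in WT pools 1, 2 and 3. In other words, signal toward transcript starts was weakest in WT pool 3 and strongest in CKO pool 1, the same 2 pools that were lowest and highest at A_55_P2105403. Of these pairs, 80.8% had a larger CKO minus WT difference at the upstream probe, with a median of 0.18. By distance between the probes, from the nearest to the farthest of 5 classes, the median was 0.051, 0.11, 0.18, 0.17 and 0.20, and without WT pool 3 it was 0.015, 0.028, 0.043, 0.0031 and -0.012. The arrays of WT pool 1 also differed, at -0.095 on the first and 0.27 on the second for probes over 2000 and up to 4000 bases apart. The labelled RNA was amplified before hybridisation, per the labels' protocols.

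The member genes can be read against that pattern. Of the 7 neighbouring probe pairs that share a transcript, in 5 genes, 6 had the larger CKO minus WT difference upstream. The contrast was 0.52 between the Nrxn3 probes 5598 bases apart and 0.42 between those 1933 bases apart. It was 0.45 for Lrrtm3 (1365 bases), 0.41 for Nrxn2 (1031 bases), 0.33 for Lrrtm2 (3681 bases) and 0.14 for Nlgn3 (839 bases). The exception was the Nrxn3 pair that is 534 bases apart, at -0.0059. With each pool's position contrast as a covariate, an alternative added after the values were seen, the differences were 0.31 for A_55_P2105403, 0.25 for A_55_P2105406, 0.089 for A_55_P1963889, 0.24 for A_55_P2054640 and 0.020 for A_66_P127136. That covariate was computed from the same arrays, and was highest in CKO pool 1 and lowest in WT pool 3. Over 6 pools the fit cannot fully separate it from genotype. What made WT pool 3 differ by position was not tested.

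**Figure D3:**
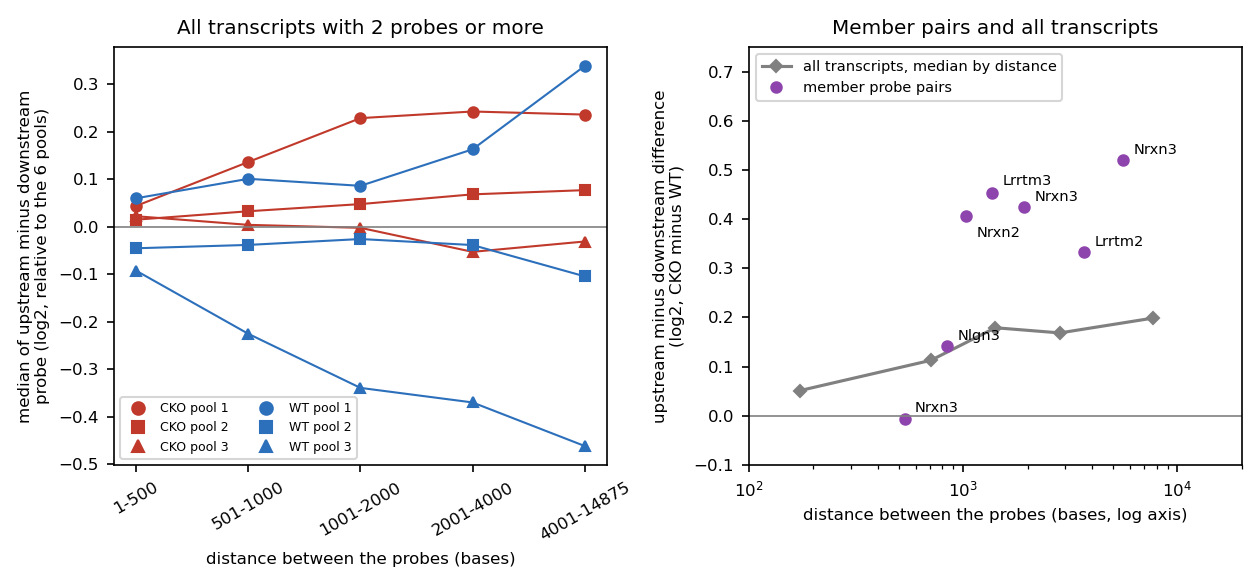
Left: median over all transcripts of the upstream minus the downstream probe (log2, relative to the 6 pools) by the distance between the probes, for CKO pools in red and WT pools in blue; WT pool 3 falls away from the rest as the distance grows. Right: CKO minus WT difference of that contrast for the 7 neighbouring member pairs (points) and the median of all transcripts (grey line) by distance on a log axis; 6 of the 7 member pairs are above 0.

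Nlgn1, the neuroligin of excitatory synapses, was measured by 1 probe. A_52_P258546 had values of 0.033, 0.22 and -0.18 in CKO pools, against -0.0096, 0.21 and 0.24 in WT pools. The pools overlapped in part, with CKO pool 3 the lowest of the 6 and WT pool 3 the highest, and the difference was -0.12 (SE 0.15; 95% interval -0.47 to 0.23), with an adjusted p of 0.999 in limma. It was -0.22 when CKO pool 2 was left out, and -0.018 when CKO pool 3 was. The 2 arrays of WT pool 1 read 0.34 and -0.36 for this probe, a gap larger than the difference between genotypes.

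Nlgn3, the X-linked neuroligin found at excitatory and inhibitory synapses, had 3 measured probes. A_55_P1960994 had values of -0.47, -0.35 and -0.27 in CKO pools against -0.19, -0.19 and -0.66 in WT pools, a difference of -0.019 (SE 0.17). A_55_P1961002 had -3.32, -3.31 and -3.40 in CKO pools against -3.30, -3.29 and -3.81 in WT pools, a difference of 0.12 (SE 0.21). At both, CKO pools were close together and WT pool 3 was the lowest of the 6.

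The brightest Nlgn3 probe was A_55_P2335903. Its values were 2.47, 2.04 and 2.11 in CKO pools against 3.08, 2.20 and 2.35 in WT pools, a difference of -0.34 (SE 0.23, adjusted p = 0.999 in limma). Each CKO pool was below the WT pool of the same number, and with the block the unadjusted p was 0.0297 and the adjusted p 0.512. The WT pool 1 value rests on arrays that read 2.26 and 3.89, and the arrays of CKO pool 1 read 2.10 and 2.84. In both genotypes the second array of pool 1 was therefore the higher one, by 0.75 in CKO and 1.63 in WT. Without the second array of WT pool 1 the difference was -0.066, and with 1 pool left out it ran between -0.51 (without WT pool 2) and -0.071 (without WT pool 1). Over the 6 pools the pairs of Nlgn3 probes correlated between r = 0.095 and 0.82, with a median of 0.17.

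Lrrtm1, which lies within the alpha-catenin gene Ctnna2, was read by 1 bright probe. A_55_P2019784 had values of 3.39, 3.21 and 3.42 in CKO pools against 3.97, 3.08 and 3.65 in WT pools. The CKO pools fell inside the WT range, and the difference was -0.23 (SE 0.21; 95% interval -0.71 to 0.26), with an adjusted p of 0.999 in limma. With 1 pool left out it ran between -0.47 (without WT pool 2) and -0.026 (without WT pool 1).

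Lrrtm2, which lies within Ctnna1, had 2 probes that did not give the same picture. A_55_P2084413 had values of -0.067, -0.032 and 0.20 in CKO pools against 0.0048, 0.51 and 0.53 in WT pools. WT pools 2 and 3 were above all CKO pools and WT pool 1 was among them, and the difference was -0.32 (SE 0.18, adjusted p = 0.999 in limma). The 2 arrays of WT pool 1 read 0.39 and -0.38, so the first array was above all CKO pools and the second below them. The upstream probe, A_55_P2084418, had -2.56, -2.82 and -2.76 in CKO pools against -2.59, -2.60 and -3.0 in WT pools, a difference of 0.017 (SE 0.20) whose sign turned to -0.041 under quantile scaling and -0.037 under median scaling.

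Lrrtm3, which lies within Ctnna3, resembled Lrrtm2. A_51_P488180 had values of -1.15, -1.13 and -1.24 in CKO pools against -1.16, -0.58 and -0.80 in WT pools. WT pools 2 and 3 were again above all CKO pools, WT pool 1 was level with the CKO pools, and the difference was -0.33 (SE 0.18, adjusted p = 0.999 in limma). The 2 arrays of WT pool 1 read -0.82 and -1.50, the first above all CKO pools and the second below them. Without the second array the difference was -0.44 (SE 0.12, adjusted p = 0.155 in limma). Its other probe, A_66_P134355, gave -1.92, -2.08 and -2.15 in CKO pools against -2.10, -1.84 and -2.59 in WT pools, a difference of 0.12 (SE 0.22). Within Lrrtm2 and within Lrrtm3 the 2 probes did not vary together over the 6 pools (r = -0.44 and -0.021).

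Lrrtm4, which binds neurexins and heparan sulfate proteoglycans and is abundant in dentate granule cells, was the member whose 2 measured probes both separated the genotypes. A_52_P424206 had values of -2.36, -2.12 and -2.23 in CKO pools 1, 2 and 3, against -1.93, -1.57 and -1.72 in WT pools 1, 2 and 3. Every CKO pool was below every WT pool, and the difference was -0.50 (SE 0.18; 95% interval -0.90 to -0.096), a CKO level 0.708 of the WT level. The unadjusted p was 0.0210 and the adjusted p over all probes 0.807 in limma, so the difference did not pass the test. The arrays of CKO pool 1 read -2.26 and -2.47, and those of WT pool 1 read -1.62 and -2.24, so the second WT array fell within the CKO values.

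The second Lrrtm4 probe, A_55_P2165210, starts at base 2061 of its transcript. Its values were -2.08, -2.31 and -2.33 in CKO pools against -1.54, -1.93 and -1.91 in WT pools. Again every CKO pool was below every WT pool, and the difference was -0.45 (SE 0.19; 95% interval -0.87 to -0.020), a CKO level 0.734 of the WT level. The unadjusted p was 0.0422 and the adjusted p 0.929 in limma. Over the 6 pools the 2 probes correlated at r = 0.50, a description over pools on shared arrays. With 1 pool left out the differences ran between -0.59 and -0.41 for A_52_P424206 and between -0.53 and -0.32 for A_55_P2165210, and with the position covariate they were -0.43 and -0.57. The third probe, A_55_P2102489, read between -6.12 and -5.78 in CKO pools and between -6.53 and -4.79 in WT pools, all not well above background.

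**Figure D4:**
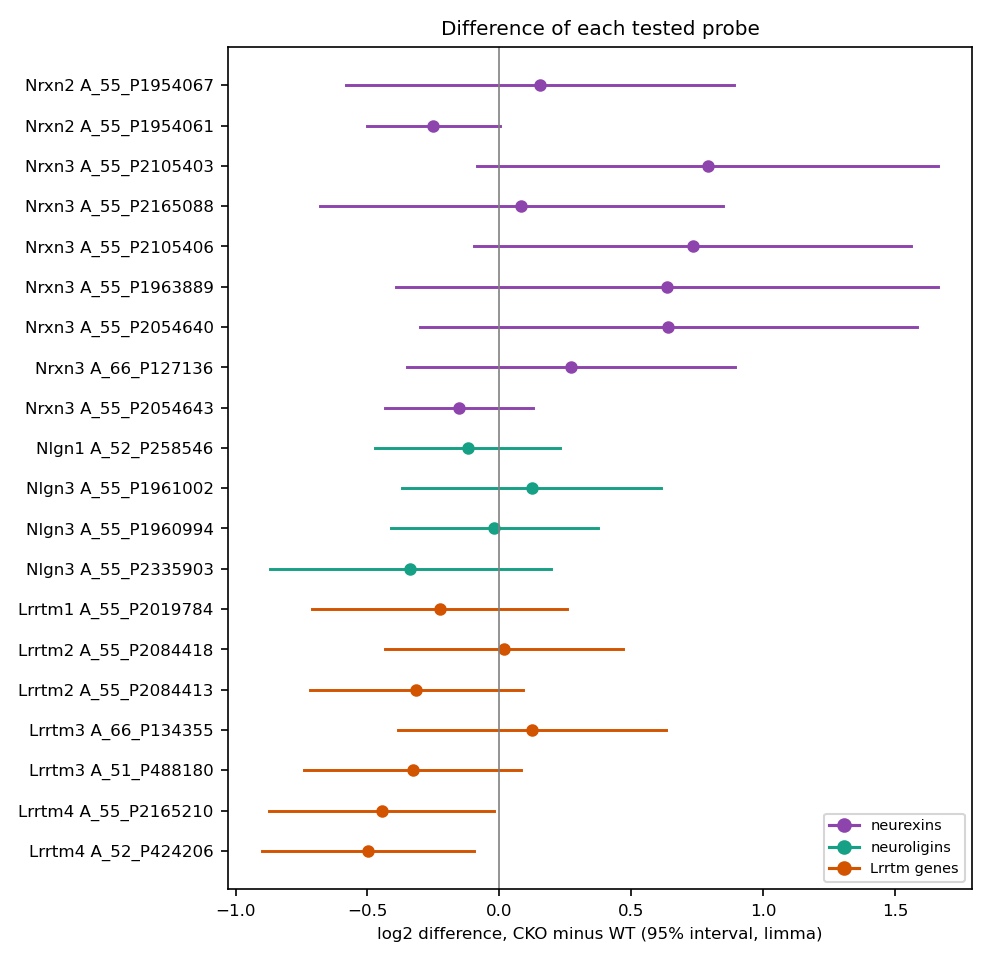
CKO minus WT difference of each tested probe with its 95% interval from limma (log2, horizontal axis), in purple for neurexins, green for neuroligins and orange for Lrrtm genes. The intervals of both Lrrtm4 probes lie below 0, at -0.90 to -0.096 and -0.87 to -0.020, and all other intervals include 0.

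Counted together, 5 of the 7 tested Lrrtm probes were lower in CKO pools, beside 47.9% of all tested probes; this is a count of 4 genes on shared arrays, not a test. Markers of cell types, and activity-regulated genes, were read in the same arrays. Excitatory neuron markers (5 of 5 measured) had 3 higher and 2 lower, with a median difference of 0.032. Of 7 markers of dentate granule cells and CA fields 6 were measured, and 3 were higher and 3 lower, with a median difference of 0.017. The mean of these 6, relative to WT, was -0.35, -0.28 and -0.033 in CKO pools against -0.071, 0.014 and 0.057 in WT pools. Of the 6, Wfs1, a CA1 marker, was at -0.91 (SE 0.12) and Dsp, a dentate granule cell marker, at -0.75 (SE 0.20), while Fibcd1 was at -0.094 (SE 0.16), Zbtb20 at 0.18 (SE 0.13), Grik4 at 0.13 (SE 0.15) and Spink8 at 0.13 (SE 0.20). All 6 oligodendrocyte markers were higher in CKO pools, with a median of 0.24, and 2 of 6 inhibitory neuron markers were higher, with a median of -0.0098. All 6 choroid plexus markers were higher in CKO pools, and WT pool 1 stood lowest, at -1.01 relative to the WT mean. Of 11 measured activity-regulated genes 10 were higher, with means of 2.27, -0.22 and 1.79 in CKO pools against 0.21, -0.13 and -0.085 in WT pools. The other marker lists had median differences of -0.0048 (astrocyte), 0.099 (oligodendrocyte precursor), -0.023 (microglia), 0.053 (endothelial) and -0.019 (thalamus or striatum). These medians hide single genes: Gfap (astrocyte) was at 0.68 (SE 0.19) and Rgs9 (thalamus or striatum) at -0.66 (SE 0.14). In the astrocyte list, and in the thalamus or striatum list, 3 of 6 were higher and 3 lower. Among these markers 0 passed an adjusted p of 0.05 in limma without the block, and with it 1 did, Wfs1 (adjusted p = 0.0175). The part of cell makeup in the Lrrtm values was not tested.

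The host genes of the Lrrtm genes belong to the alpha-catenins, which tie cadherins to actin. Ctnna2, which encodes the neuronal alpha-catenin and holds Lrrtm1, was at 0.20 (SE 0.12) and 0.22 (SE 0.12) for its 2 probes, and at both every CKO pool was above every WT pool, though neither passed the test (adjusted p = 0.999 in limma for both). Over all probes 6% had every CKO pool above every WT pool. Ctnna1, which holds Lrrtm2, was at 0.054 (SE 0.12), and this sign turned to -0.00077 under median scaling. Ctnna3, which holds Lrrtm3, was not well above background on any array.

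The other secreted and membrane partners of neurexins were taken as a list of 19 genes, of which 15 were measured. In CKO pools 6 of these were higher and 9 lower, with a median of -0.13 against 0.010 over all probes. Of all tested probes 47.9% were lower. The test passed 0 of the 15 in either direction, also with the block. Without the block 2 were below an unadjusted p of 0.05 in limma, both lower, against 5.29% of all probes (2.31% lower). C1ql2, a secreted protein of mossy fibre terminals that binds neurexin, had the largest difference of the list. Its values were 0.20, -0.019 and 0.012 in CKO pools against 1.73, 1.35 and 0.42 in WT pools. Every CKO pool was below every WT pool, as at 5.22% of all probes. The CKO pools were nearly alike while the WT pools spread over more than 1 unit. The difference was -1.10 (SE 0.30), with an adjusted p of 0.513 in limma, and 0.0514 with the block.

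Cbln1, the cerebellin that bridges neurexin to the delta glutamate receptors, had values of -2.37, -2.32 and -2.48 in CKO pools against -2.26, -1.50 and -1.23 in WT pools, a difference of -0.73 (SE 0.26, adjusted p = 0.833 in limma). These groups did not overlap either, though WT pool 1, at -2.26, was close to the highest CKO pool, at -2.32. Its relative Cbln4 was at -0.42 (SE 0.25) and Nxph3, a neurexophilin that binds alpha-neurexins, also at -0.42 (SE 0.24), with overlapping pools for both. Cbln4 was at -0.22 without WT pool 2, and Nxph3 at -0.18 without CKO pool 3. The delta receptor gene Grid1 was at 0.57 (SE 0.48) and Dag1, which encodes dystroglycan, at 0.39 (SE 0.25).

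Of 39 other synaptic adhesion genes, 36 were measured, 15 higher and 21 lower in CKO pools, with a median of -0.041. The share lower over all tested probes was 47.9%. The test passed 0 of the 36, also with the block. Without it 1 was below an unadjusted p of 0.05 in limma, against 5.29% of all probes. That one, Cadm1, an immunoglobulin-domain adhesion protein, was at 0.30 (SE 0.13), with values of 0.79 to 1.01 in CKO pools and 0.47 to 0.68 in WT pools. Ptprd, a presynaptic receptor phosphatase, was at 0.25 (SE 0.12), also with separated pools. Pools separated with CKO above WT at 6% of all probes. Slitrk3, a postsynaptic ligand of Ptprd at inhibitory synapses, was at 0.43 (SE 0.25) and Igsf9b, an adhesion protein of inhibitory synapses, at -0.57 (SE 0.31), with overlapping pools. Without WT pool 3 Slitrk3 was at 0.14, and without WT pool 1 Igsf9b was at -0.21.

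All 18 genes for scaffolds that bind neurexins or neuroligins were measured, 12 higher and 6 lower in CKO pools, with a median of 0.050. The share lower over all tested probes was 47.9%. None of the 18 passed the test in limma with or without the block. Without it 1 was below an unadjusted p of 0.05, against 5.29% of all probes. That gene, Lin7a, which encodes a PDZ protein in a complex with Cask, had values of 1.02, 0.74 and 0.83 in CKO pools against 0.51, 0.41 and 0.017 in WT pools. All CKO pools were above all WT pools, as at 6% of all probes, and the difference was 0.55 (SE 0.16, adjusted p = 0.633). Cask, the kinase-like scaffold on the neurexin tail, was at 0.23 (SE 0.18), and Sdcbp, which encodes the PDZ protein syntenin, at 0.35 (SE 0.19); without WT pool 2 Cask was at 0.12, and without WT pool 3 Sdcbp was at 0.17. Epb41l2, a member of the protein 4.1 family that links membrane proteins to actin, was at 1.02 (SE 0.52), with 1 WT pool at -4.77 against -2.96 and -2.45 in the other WT pools; without that pool (WT pool 2) it was at 0.33. Dlg4, the gene of PSD-95, was at 0.016 (SE 0.17).

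**Figure D5:**
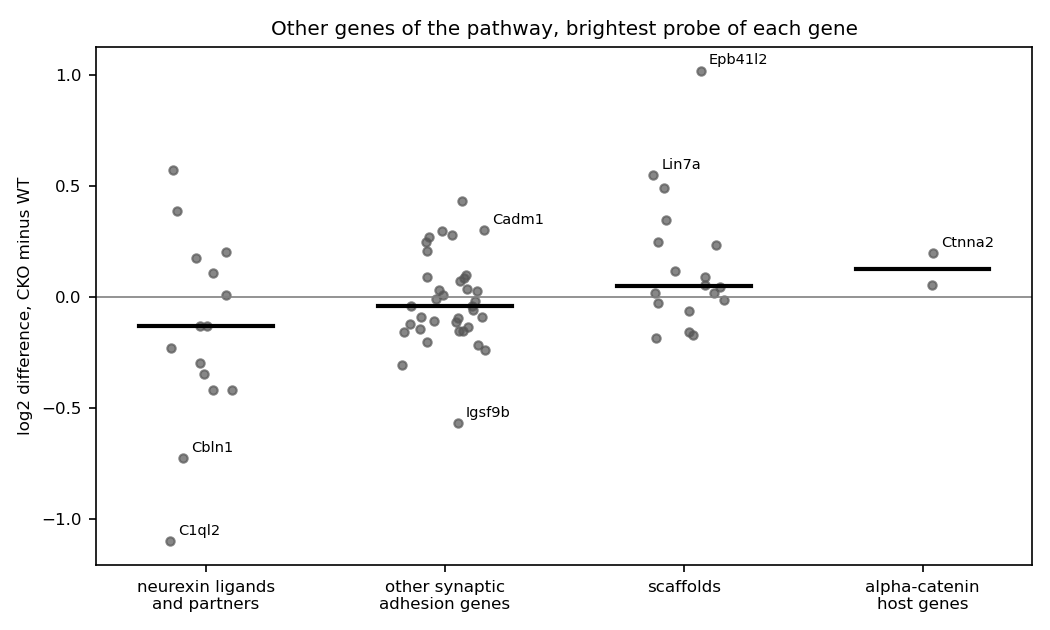
CKO minus WT difference (log2, vertical axis) of each measured gene of the 4 lists, read by its brightest probe, with the list median as a black bar. The medians are -0.13 for neurexin ligands and partners, -0.041 for other synaptic adhesion genes, 0.050 for scaffolds and 0.13 for the 2 measured alpha-catenin genes.

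For each member, the gene whose brightest probe was most like the member's brightest over the 6 pools was found among 15095 genes. These were Man1c1 for Nrxn2 (r = 0.998), Defb25 for Nrxn3 (r = 0.988), 9230110K08Rik for Nlgn1 (r = 0.997), Kcnk16 for Nlgn3 (r = 0.998), Napa for Lrrtm1 (r = 0.998), Slc25a14 for Lrrtm2 (r = 0.994), Col12a1 for Lrrtm3 (r = 0.987) and Zfp599 for Lrrtm4 (r = 0.996). With 6 pools and so many genes such values are easily reached: between 31 and 219 genes had an r over 0.95 with each member.

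RefSeq promoter windows, 250 bases before to 50 bases after a transcript start (GRCm38.p6), were found for 5 of the 8 genes: 3 for Nrxn3, 2 each for Nlgn1 and Lrrtm4, and 1 each for Lrrtm1 and Lrrtm3. The core CTCF motif, searched on both strands as CCANNAG followed by any 2 bases and GGC, was in 0 of these 9 windows, and in 797 of all 32851 windows (2.43%). These letters are thus rare in windows of this length, and their absence here bears on these windows alone.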

How the data were processed

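Whole-hippocampus RNA from 3 CKO and 3 WT pools of 3 mice was read on 8 Agilent 1-colour arrays. The deposited scanner files hold spot intensity values. They came from Feature Extraction 11.5 (Agilent), as the submitters' processing notes list it, and per the file headers the processed signal was background-subtracted within each array and not scaled between arrays. The value table deposited by the authors, with linear intensity and an unstated step between arrays, was an alternative. Probe positions are those the deposited files give within a transcript; no genome coordinates are printed, since the files use mm9 and the gene table GRCm38.p6.

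Values are log2 of processed signal minus the array's 75th percentile over 43020 non-control spots. Outlier spots were left out, spots of a probe and arrays of a pool were averaged. A probe was kept if all arrays of CKO or all of WT flagged it as well above background (23648 probes). Of these 23637 had values enough for the fit with limma 3.58.1 in R 4.3.3 (lmFit, then eBayes with trend). Tests were two-sided with Benjamini-Hochberg adjustment over all probes and a threshold of 0.05. The limma fit, with and without the block, was tested on simulated pools with independent noise and changes larger than those of the member probes. The simulated pools held no shared pool effect, and scaling and filtering were not part of that test. The 8 arrays read 3 pools per genotype, and this number of pools limits the precision. An exact permutation test of 3 pools against 3 cannot go below 0.1.

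Same-numbered pools, which the labels give the same sex and age makeup, deviated together from their genotype means. The r across probes was 0.55, 0.33 and 0.13 for pools 1, 2 and 3, and the highest between different numbers was 0.12. With first arrays only the same-number values were 0.086, 0.077 and 0.12. The fit with the pool number as a block is therefore given where it changes a call at an adjusted p of 0.05, and for some unadjusted counts and p-values. Unadjusted counts in the pathway lists are those without the block. The labels call the pools biological replicates.

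The members, the pathway lists and the marker lists were chosen with earlier results of these data known. The text names every member probe, Ctcf, up to 4 genes of each pathway list by smallest unadjusted p of the brightest kept probe, the alpha-catenin host genes, and the gene most like each member. Grid1, Dag1, Dlg4, Gfap, Rgs9 and the 6 markers of dentate and CA fields were named after their values were seen. Alternatives were the block, scaling, background, filter, variance trend, array weights, arrays of pool 1, slide, 1 probe per gene, each pool left out, and, added after seeing the data, probe position as a covariate and the block with fewer arrays of pool 1.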

Additional observations from a re-analysis of the deposited data

How the results depend on the processing

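No member probe passed in any of the 24 alternatives, and the lowest adjusted p was 0.0912. Of 468 member values under the alternatives 28 changed sign, and 13 of 20 probes never did, both Lrrtm4 probes and Nrxn2 A_55_P1954061 among them. The pool number as a replicate block raised the probes called over all genes to 89, against 8 without it, and Ctcf, at -0.87, then passed (adjusted p = 0.0334); it changed no other call given in the report except that of the marker Wfs1. The count of all probes called was 4 with the authors' value table, 5 with 1 probe per gene, 52 with array weights, 115 with first arrays only, 87 without the second array of WT pool 1, 0 with slide 2 only, and 1 to 21 with 1 pool left out (21 without WT pool 1, 1 without WT pool 3). Of the alternatives added after seeing the data, the block without the second array of WT pool 1 gave 33, the block with first arrays 37, and the position covariate 2. Ctcf also passed with array weights (-0.91), first arrays only (-0.92), without the second array of WT pool 1 (-0.95), and with the block in the last 2 settings (-0.92 and -0.95); with 1 pool left out it ran between -0.95 and -0.80 and passed without WT pool 1. One partner gene, C1ql2, passed with slide 1 only (-1.38, adjusted p = 0.0206), where each genotype has 2 pools; the count of partner and scaffold genes was then 1. The causes were not tested.

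Sign changes were as follows. With slide 1 only: Nrxn2 A_55_P1954067 -0.069, Nrxn3 A_66_P127136 -0.22, Nlgn3 A_55_P1961002 -0.0017, Lrrtm2 A_55_P2084418 -0.039 and Lrrtm3 A_66_P134355 -0.073. With slide 2 only: Nrxn3 A_55_P2165088 -0.47 and Nlgn3 A_55_P1960994 0.065. With the position covariate: Nrxn2 A_55_P1954067 -0.27, Nrxn3 A_55_P2165088 -0.11, Nlgn3 A_55_P1961002 -0.032, Lrrtm2 A_55_P2084418 -0.13 and Lrrtm3 A_66_P134355 -0.06. Lrrtm2 A_55_P2084418 was also at -0.041 (quantile), -0.037 (median), -0.04 (normexp) and -0.085 (authors' table). With array weights Nlgn3 A_55_P1960994 was at 0.12 and Ctnna1 at -0.012; median scaling put Ctnna1 at -0.00077. Leaving out 1 pool gave Nrxn2 A_55_P1954067 -0.23 to 0.53, Nrxn3 A_55_P2165088 -0.29 to 0.46, Nrxn3 A_66_P127136 -0.077 to 0.52, Nlgn3 A_55_P1961002 -0.049 to 0.21, Nlgn3 A_55_P1960994 -0.18 to 0.061, Lrrtm2 A_55_P2084418 -0.12 to 0.089, Lrrtm3 A_66_P134355 -0.082 to 0.29 and Ctnna1 -0.005 to 0.11.

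Limits are the 3 pools per genotype, WT pool 1 arrays that correlate at 0.954, and whole tissue. Probes of 1 gene disagree, so a difference at 1 probe is given for that probe alone. Why they disagree was not tested.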
